A study of Mus musculus with 12 samples.

Results

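Replication-dependent histone genes encode the H1, H2A, H2B, H3 and H4 proteins that package newly copied DNA. Rows of the deposited expression table were taken as members when their gene symbol began with Hist1h, Hist2h, Hist3h or Hist4h, and 9 of 55401 rows did so: Hist1h2al, Hist1h2an, Hist1h2ao, Hist1h2ap, Hist1h2bp, Hist1h2bq, Hist1h2br, Hist1h4m and Hist1h4n. The table lists the rest of the family under newer symbols such as H4c4 and H2bc8. Matching by gene ID to the GENCODE M21 annotation, which still uses the older names, gave 70 genes, namely the 9 rows and 61 others. The 9 rows are described first, and the whole family beside them with the older symbol in parentheses.

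The libraries came from CD4 T cells sorted out of the spleens of C57BL/6 mice that had all been infected with Leishmania donovani, the parasite of visceral leishmaniasis, for 21 days. One population, called TLCP here, was LAG-3+ CXCR5+ PD-1lo/int. The population it was compared with was CXCR5+ PD-1hi T follicular helper (Tfh) cells, described by the submitters as largely of the germinal center kind. The series names 6 mice, each population has 6 libraries numbered 1 to 6, and there was no uninfected group. RNA was selected by its poly(A) tail before sequencing, and this bears directly on histone genes.

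In S phase, when DNA is copied, the transcription coactivator NPAT drives histone genes as a group. Their messages are the main animal mRNAs without a poly(A) tail: they end shortly after a conserved stem-loop that is bound by the stem-loop binding protein SLBP, encoded by Slbp, and they are degraded when DNA synthesis stops. A poly(A) selection therefore retains only part of them, and some histone genes also give longer, polyadenylated messages, among them H1f2 (Hist1h1c), H2bc4 (Hist1h2bc) and H2bc21 (Hist2h2be). Germinal center T cells and activated T cells divide, so their histone messages are of interest as a readout of S phase.

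Each library held between 6939770 and 12688306 reads assigned to genes, and 3 reads correspond to 0.236 to 0.432 counts per 1e6 assigned reads (CPM), a floor that covers counting error only. The 70 histone genes took 0.0213% to 0.0447% of the assigned reads and the 9 rows took 33 to 126 reads per library. The sorted populations matched their labels: Lag3 averaged 189 ± 31.2 CPM in TLCP cells and 40.5 ± 11.1 CPM in Tfh cells, and Pdcd1, which encodes PD-1, averaged 36.6 ± 4.60 CPM in TLCP cells and 318 ± 34.8 CPM in Tfh cells (SD, n = 6 each). Cd4 averaged 725 CPM in TLCP cells and 955 CPM in Tfh cells. RNA of other cells was also present and differed between the populations. Summed CPM of 10 B cell markers ran from 6393 to 32530 in TLCP libraries and from 1392 to 2973 in Tfh libraries, with 8 of the 10 higher in TLCP. Summed CPM of 8 plasma cell markers ran from 733 to 3612 in TLCP libraries and from 88.1 to 419 in Tfh libraries, with 6 of 7 tested markers higher in TLCP. Of 5 basophil and mast cell markers, 4 were tested and all 4 were higher, with sums of 23.3 to 91.4 CPM in TLCP libraries and of 0 to 6.69 CPM in Tfh libraries. Of 10 T cell markers 8 were lower in TLCP and 1 was higher, with sums of 3846 to 4800 CPM in TLCP libraries and of 5336 to 5979 CPM in Tfh libraries. No marker of these 4 lists was at 0 in every library of a population. The part that the other cells have in the results for histone genes, and for the other genes below, was not tested.

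The stem-loops of the members and of the genes on which the results turn are printed below, read 5′ to 3′ from GENCODE M21 transcripts, with the stem-loop in capitals and up to 5 bases before and 9 bases after it in lower case. They are shown because this element stands in place of a poly(A) tail. Transcripts of Hist1h2ap and Hist1h4m end 3 bases after it in the annotation.
Hist1h4m: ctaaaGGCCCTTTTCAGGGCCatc
Hist1h4n: ctaaaGGCCCTTTTCAGGGCCatccaatta
H4c4 (Hist1h4d): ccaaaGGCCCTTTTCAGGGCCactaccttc
Hist1h2ao: aaaaaGGCTCTTTTCAGAGCCatccacagt
Hist1h2ap: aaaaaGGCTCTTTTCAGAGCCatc
H2ac4 (Hist1h2ab): acaaaGGCTCTTTTCAGAGCCacccacatc
Hist1h2bp: acaaaGGCTCTTTTCAGAGCCacccacatt
H2bc8 (Hist1h2bg): ccaaaGGCTCTTTTCAGAGCCacccatact
H2bc3 (Hist1h2bb): ccaaaGGCTCTTTTAAGAGCCacccacact
H1f2 (Hist1h1c): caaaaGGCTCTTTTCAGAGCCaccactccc

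An exact match to the element was found in an annotated transcript of 44 of the 70 genes, and 46 matched with 1 mismatch allowed. The commonest form, that of H2ac4 and H2bc8 above, occurred in 26 genes, none of them an H4 gene. The form of H4c4 occurred in 7 genes, all of class H4, Hist1h4m and Hist1h4n among them. Annotated transcripts of 22 genes ended within 100 bases of the element, those of 22 genes ran over 100 bases past it, and those of 26 genes, Hist1h2al, Hist1h2an, Hist1h2bq and Hist1h2br among them, held no exact match.

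Of the 9 rows, 8 lie in a short stretch of the large histone cluster on mouse chromosome 13 and Hist1h2al, annotated as a processed pseudogene, lies apart at chr13:51202727-51203065 (GRCm38). In that stretch Hist1h2bq (chr13:21806612-21810197), Hist1h2ao (chr13:21810465-21810944) and Hist1h4m (chr13:21811746-21812147) stand in the opposite order and orientation to Hist1h4n (chr13:21831767-21832196), Hist1h2ap (chr13:21833026-21833507) and Hist1h2br (chr13:21833743-21837530). The coding sequences of these pairs were identical: Hist1h4m and Hist1h4n over 312 bases, Hist1h2ao and Hist1h2ap over 393 bases, and Hist1h2bq and Hist1h2br over 381 bases. Hist1h2an (chr13:21786826-21787218) differed from Hist1h2ao at 5 of 393 coding bases, and Hist1h2bp (chr13:21787461-21789213) differed from Hist1h2bq at 6 of 381. A stretch of each pair is printed to show how little separates the copies, with the differing bases in capitals, for coding bases 319 to 378 of the H2A pair and 10 to 69 of the H2B pair.
Hist1h2an: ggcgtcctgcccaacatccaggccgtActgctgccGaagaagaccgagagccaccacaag
Hist1h2ao: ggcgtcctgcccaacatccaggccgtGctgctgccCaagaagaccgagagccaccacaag
Hist1h2bp: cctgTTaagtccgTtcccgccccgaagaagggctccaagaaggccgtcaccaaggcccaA
Hist1h2bq: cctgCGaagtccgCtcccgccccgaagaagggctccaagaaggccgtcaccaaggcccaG

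Such copies limit what a count can say, since a read that matches several places is not assigned to 1 gene in the deposited counts. Of all windows of 50 bases in the annotated transcripts, the share found in no other gene's transcript was 55.9% for Hist1h2bp, 32.4% for Hist1h2al, 14.4% for Hist1h4n, 14.2% for Hist1h2an and 10.2% for Hist1h4m. It was 11.3% for Hist1h2br, 6.93% for Hist1h2ap, 6.50% for Hist1h2ao and 2.68% for Hist1h2bq. Values of all 9 rows are therefore uncertain as values of a single gene. Across the family, 36 of the 70 genes had fewer than 50% such windows, and they held 20.7% of the family's reads.

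RefSeq promoters (GRCm38.p6) could be matched for 62 of the 70 genes, 8 of the 9 rows among them. In the 250 bases before the transcription start, CCAAT on either strand, the CCAAT box, was found in 51 of the 62 (82.3%) and in 33.8% of all 32851 promoters. TATAAA on either strand, the TATA box, was found in 29 of the 62 (46.8%) and in 12.4% of all promoters. The 2 windows below are printed because the rows differ here: Hist1h4m and Hist1h4n held TATAAA but no CCAAT, whereas the 6 H2A and H2B rows held CCAAT. Capitals mark both motifs, and the windows are chr13:21811496-21811745 on the plus strand for Hist1h4m and chr13:21787238-21787487 on the plus strand for Hist1h2bp.
Hist1h4m: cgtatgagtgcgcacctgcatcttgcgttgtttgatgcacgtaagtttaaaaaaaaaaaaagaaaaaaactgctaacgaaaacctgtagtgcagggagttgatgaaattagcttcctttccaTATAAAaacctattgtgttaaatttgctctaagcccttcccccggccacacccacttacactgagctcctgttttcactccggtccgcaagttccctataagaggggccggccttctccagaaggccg
Hist1h2bp: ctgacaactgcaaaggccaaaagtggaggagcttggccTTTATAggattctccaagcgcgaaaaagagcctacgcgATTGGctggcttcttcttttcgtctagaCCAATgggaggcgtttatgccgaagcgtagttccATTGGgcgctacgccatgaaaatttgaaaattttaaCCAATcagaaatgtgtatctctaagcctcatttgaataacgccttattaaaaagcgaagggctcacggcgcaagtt
The window of Hist1h2bp overlaps that of Hist1h2an, which is read from the other strand, so this pair is transcribed away from a shared promoter region. The windows of Hist1h2bq and Hist1h2br were identical over all 250 bases. Those of Hist1h4m and Hist1h4n are offset and read the same apart from a base at the end of each.

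Hist1h4m, an H4 gene, was lower in TLCP cells. Its level was 1.35, 1.93 and 3.72 CPM (lowest, median, highest) in TLCP libraries and 2.12, 4.58 and 6.70 CPM in Tfh libraries, and the TLCP library was the lower one in 6 of 6 same-numbered pairs. The groups overlapped: TLCP library 3 lay above Tfh libraries 1 and 6, and TLCP libraries 2 and 5 lay just above Tfh library 1. The mean was 2.12 ± 0.845 CPM in TLCP cells and 4.68 ± 1.82 CPM in Tfh cells (SD, n = 6 each), from 121 reads in TLCP libraries and 257 reads in Tfh libraries. The log2 fold change was -1.14 ± 0.33 (SE), with an adjusted p of 0.0107 in edgeR's quasi-likelihood test. In the authors' deposited table its log2 fold change was -1.14 with an adjusted p of 0.00447. In bulk samples, fewer cells in S phase and less histone message per cell cannot be told apart. Neither can be told apart from a difference in how much RNA without a poly(A) tail the selection retained.

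Its twin Hist1h4n had 0, 1.85 and 2.30 CPM in TLCP libraries and 0.957, 2.58 and 4.94 CPM in Tfh libraries. The 3 lowest TLCP libraries were numbers 4, 5 and 6, and the groups overlapped widely. The log2 fold change of -0.90 ± 0.55 (SE) did not pass the test (adjusted p = 0.230, edgeR). Hist1h2an, an H2A gene, had 0.435, 0.947 and 1.96 CPM in TLCP libraries and 0.718, 1.06 and 3.35 CPM in Tfh libraries. Its log2 fold change of -0.47 ± 0.47 (SE) did not pass either (adjusted p = 0.485, edgeR), and the interval this leaves is wide.

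Hist1h2bp, an H2B gene, had 33 reads in TLCP libraries and 47 reads in Tfh libraries, with 0 reads in TLCP libraries 5 and 6 and in Tfh library 4, and was too low to be tested. Hist1h2al had 1 read in TLCP libraries and 2 reads in Tfh libraries, and Hist1h2ao had 0 reads in TLCP libraries and 1 read in Tfh libraries. Hist1h2ap, Hist1h2bq and Hist1h2br had no read in any library. Thus 3 of the 9 rows had enough reads to be tested and 1 of the 3 was lower in TLCP, where 16.4% of all 12015 tested genes were. None was higher, where 16.8% of all tested genes were.

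**Figure D1:**
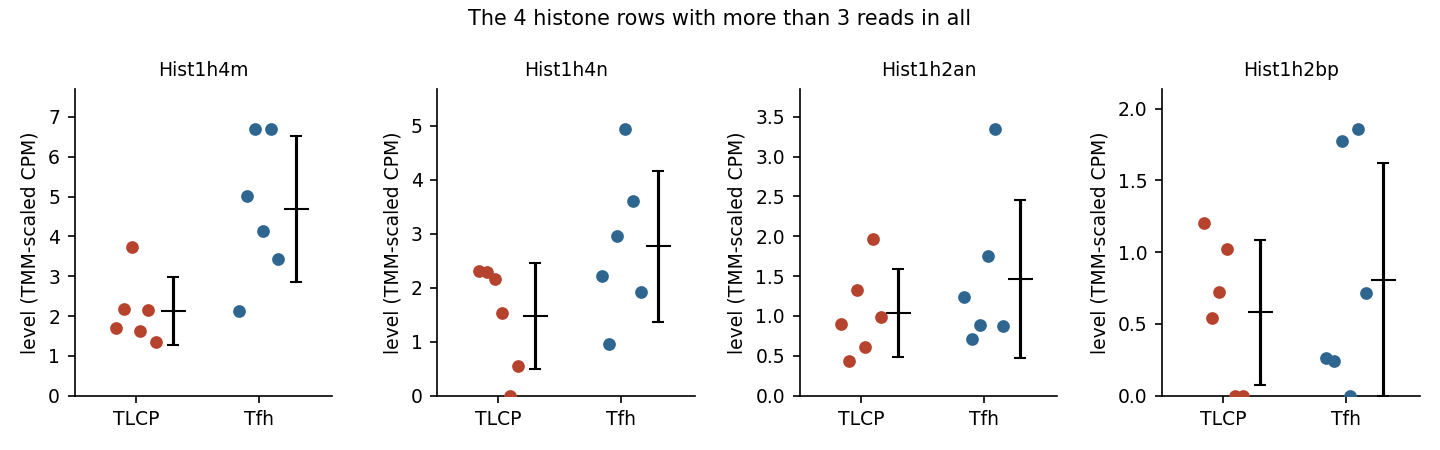
Level of the 4 histone rows with more than 3 reads in all, in TMM-scaled CPM on the vertical axis, with 1 point per library (TLCP left, Tfh right) and the mean with its SD beside the points. Hist1h4m has its 6 TLCP points between 1.35 and 3.72 and its 6 Tfh points between 2.12 and 6.70, and the points of the other 3 genes overlap more.

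Across the family the same direction prevailed. Of the 70 genes 45 had enough reads to be tested, and the other 25 had 0 to 168 reads in the 12 libraries together. Of the 45, 16 were lower in TLCP (35.6%, against 16.4% of all tested genes), none was higher, and 29 did not pass. The log2 fold change was negative for 44 of the 45, against 50.6% of all tested genes, with a median of -0.68 beside -0.00 over all tested genes. The exception was H2bu2 (Hist3h2ba), at 0.21 ± 0.33 (SE). Scaling by library totals alone moved the median of all genes to 0.17 and left 11 of the 45 lower (7.43% of all tested genes) and none higher, with a median of -0.50. With the replicate number as a block 19 of the 45 were lower (against 18% of all tested genes) and none higher, which ended the calls of H2ac6 and H2ac13 and added those of H4c14, H4c8, H2bc9, H4c6 and H1f4.

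**Figure D2:**
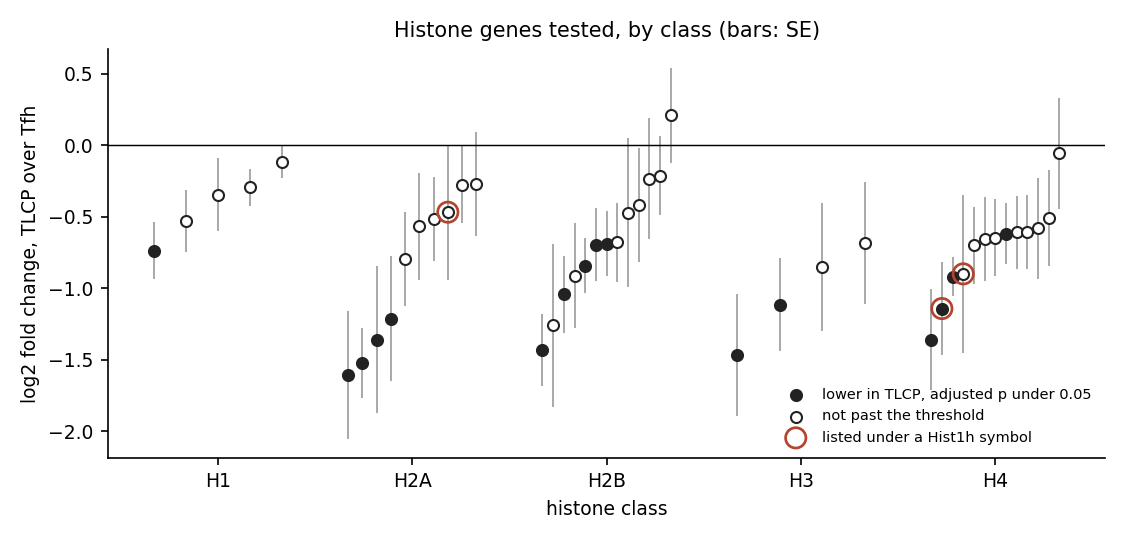
Log2 fold change (TLCP over Tfh) of the 45 tested histone genes by class, with SE bars. Filled points passed the adjusted p of 0.05, and ringed points are the 3 tested genes listed under a Hist1h symbol. All filled points lie below 0.

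Every class shared this direction. Summed over all 70 genes, tested or not, the family reached 194, 239 and 319 CPM (lowest, median, highest) in TLCP libraries and 274, 397 and 521 CPM in Tfh libraries. The groups overlapped: TLCP libraries 2 and 3 lay above Tfh library 1. The summed H4 level was 71.0 ± 15.5 CPM in TLCP cells and 116 ± 26.9 CPM in Tfh cells, and that of H2B was 58.4 ± 10.9 CPM in TLCP cells and 101 ± 25.4 CPM in Tfh cells (SD, n = 6 each). H2A summed to 23.3 ± 4.03 CPM in TLCP cells and 40.4 ± 12.8 CPM in Tfh cells, and H3 to 12.3 ± 5.65 CPM in TLCP cells and 23.0 ± 8.02 CPM in Tfh cells. The linker histones H1, which bind the DNA between nucleosomes, differed least, at 86.6 ± 17.5 CPM in TLCP cells and 111 ± 18.4 CPM in Tfh cells, and by deposited TPM they summed to 156 ± 23.2 in TLCP cells and 162 ± 12.9 in Tfh cells.

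Of the family, 3 genes of 45 tested had every TLCP library below every Tfh library, no larger a share than the 8.86% of all tested genes. H4c4 (Hist1h4d), an H4 gene at chr13:23581598-23582735, had 10.8, 13.3 and 15.7 CPM in TLCP libraries and 18.5, 24.9 and 29.9 CPM in Tfh libraries. Its log2 fold change was -0.92 ± 0.14 (SE, adjusted p = 3.5e-05, edgeR). H2ac4 (Hist1h2ab), an H2A gene at chr13:23751126-23751598, had 1.63, 2.36 and 3.20 CPM in TLCP libraries and 5.31, 6.40 and 10.2 CPM in Tfh libraries. Its log2 fold change was -1.52 ± 0.24 (SE, adjusted p = 7.6e-05, edgeR).

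The third of these genes was H2bc8 (Hist1h2bg), an H2B gene at chr13:23571396-23572013, with 3.37, 6.50 and 7.17 CPM in TLCP libraries and 10.8, 13.4 and 27.6 CPM in Tfh libraries, and its log2 fold change was -1.43 ± 0.25 (SE), at an adjusted p of 0.000262 in edgeR. Of the windows of 50 bases of these 3 genes, 89.8% were found in no other gene for H4c4, 50.3% for H2bc8 and 42.0% for H2ac4.

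Among the other H2A genes, H2ac11 (Hist1h2ag) had 0.306, 0.957 and 1.44 CPM in TLCP libraries and 1.28, 2.18 and 5.33 CPM in Tfh libraries, with a log2 fold change of -1.61 ± 0.45 (SE), the largest of the called genes in size. H2ac6 (Hist1h2ac) passed narrowly at -1.21 ± 0.44 (adjusted p = 0.0380, edgeR) and did not pass with the replicate block (adjusted p = 0.0625). H2ac15 (Hist1h2ak), the H2A gene with the highest TPM, had 24.9 ± 9.61 TPM in TLCP cells and 28.8 ± 14.5 TPM in Tfh cells (SD, n = 6 each) and did not pass.

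Among the H2B genes, H2bc3 (Hist1h2bb) averaged 8.34 ± 1.51 CPM in TLCP cells and 14.97 ± 4.22 CPM in Tfh cells, with a log2 fold change of -0.84 ± 0.19 (SE) and an adjusted p of 0.00207 in edgeR. H2bc15 (Hist1h2bn), which had the highest TPM of its class, averaged 8.13 ± 3.44 CPM in TLCP cells and 16.7 ± 4.72 CPM in Tfh cells (SD, n = 6 each). It was lower at -1.04 ± 0.27 (SE), with an adjusted p of 0.00694 in edgeR. Among the H3 genes, H3c3 (Hist1h3c) had 0.511, 1.44 and 4.68 CPM in TLCP libraries and 3.45, 4.38 and 9.05 CPM in Tfh libraries. H3c7 (Hist1h3f) had 1.63, 3.001 and 5.29 CPM in TLCP libraries and 2.92, 6.30 and 11.9 CPM in Tfh libraries. Both H3 genes were lower in TLCP, H3c3 at -1.47 ± 0.43 and H3c7 at -1.11 ± 0.32 on the log2 scale (SE), and in each the highest TLCP library lay above the lowest Tfh library.

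Among the H4 genes, H4c2 (Hist1h4b) had 0.715, 2.08 and 3.88 CPM in TLCP libraries and 2.99, 5.22 and 10.03 CPM in Tfh libraries, and its log2 fold change was -1.36 ± 0.35 (SE), at an adjusted p of 0.00540 in edgeR. H4c6 (Hist1h4f), the family member with the highest TPM, had 74.7 ± 22.7 TPM in TLCP cells and 94.2 ± 32.6 TPM in Tfh cells (SD, n = 6 each). Its log2 fold change of -0.61 ± 0.26 (SE) missed the threshold (adjusted p = 0.0818, edgeR) and passed with the replicate block (adjusted p = 0.0105). Among the H1 genes, H1f3 (Hist1h1d) averaged 14.1 ± 3.57 CPM in TLCP cells and 23.5 ± 6.78 CPM in Tfh cells and was lower (log2 fold change -0.74 ± 0.20, adjusted p = 0.00910, edgeR). H1f5 (Hist1h1b), which had the highest TPM of its class, did not pass at -0.53 ± 0.22 (SE).

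The 3 genes known to give polyadenylated messages did not pass the test, and neither did most of the tested histone genes. Whether the 3 differ from the rest of the family was not tested. H1f2, the histone gene with the most reads, had 23.8, 30.5 and 36.9 CPM in TLCP libraries and 28.4, 32.7 and 38.7 CPM in Tfh libraries. The groups overlapped, with TLCP libraries 4 and 6 below every Tfh library. The log2 fold change of H1f2 was -0.12 ± 0.11 (SE, adjusted p = 0.467, edgeR). Fitted on libraries 1 to 3 alone it was 0.13, and on libraries 4 to 6 alone it was -0.39. H2bc4 was at -0.47 ± 0.52 and H2bc21 at -0.21 ± 0.27 (SE). Grouped by annotated 3′ end, 7 of 14 tested genes whose transcripts end within 100 bases of the stem-loop were lower (median log2 fold change -0.77). The share over all tested genes was 16.4%. Lower too were 6 of 18 whose transcripts run further (median -0.67) and 3 of 13 whose annotated transcripts hold no exact match (median -0.57). Some of these 13, such as H1f5 and H2bc15, are annotated only to the stop codon, so this group need not lack the element.

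**Figure D3:**
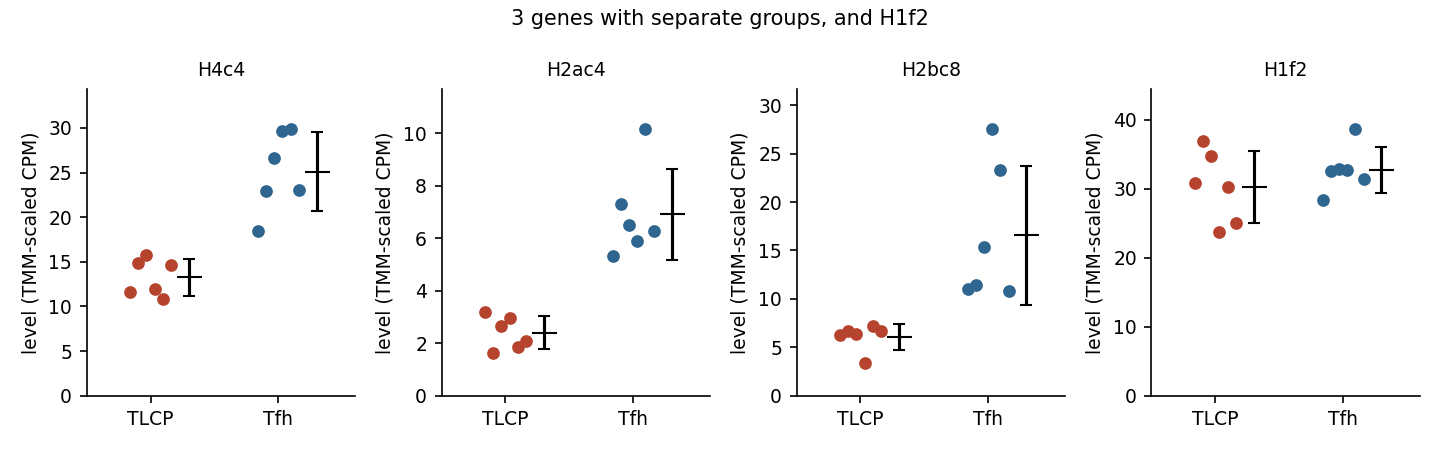
Level in TMM-scaled CPM on the vertical axis for the 3 genes whose groups do not overlap and for H1f2, 1 point per library (TLCP left, Tfh right) with the mean and its SD. The TLCP points of H4c4 reach 15.7 and its Tfh points start at 18.5. The groups of H1f2 overlap, with TLCP points from 23.8 to 36.9 and Tfh points from 28.4 to 38.7.

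RNA without a poly(A) tail of another kind moved with the histone level. CT010467.1, which GENCODE M21 annotates as a ribosomal RNA gene (chr17:39846353-39848827), took 17.7%, 22.4%, 24.1%, 12.9%, 13.7% and 12.9% of the assigned reads in TLCP libraries 1 to 6. It took 16.6%, 25.5%, 24.1%, 28.3%, 30.9% and 22.8% in Tfh libraries 1 to 6. The histone family took 0.0270%, 0.0321%, 0.0294%, 0.0213%, 0.0234% and 0.0256% in TLCP libraries 1 to 6, and 0.0287%, 0.0342%, 0.0392%, 0.0390%, 0.0447% and 0.0331% in Tfh libraries 1 to 6. In both measures TLCP libraries 4 to 6 are the lowest of all, and Tfh library 5 is the highest.

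Per 1000 reads of CT010467.1 the family had 1.59 ± 0.262 reads in TLCP libraries and 1.497 ± 0.154 reads in Tfh libraries (SD, n = 6 each), so on this scale the direction was turned and the groups overlapped. Of the 10 RNAs listed as lacking a poly(A) tail 4 were tested, and their median log2 fold change was -0.71. Rn7sk, a small nuclear RNA that restrains transcription elongation, averaged 224 CPM in TLCP cells and 375 CPM in Tfh cells (log2 fold change -0.74, adjusted p = 0.0756), and none of the 4 passed in edgeR, while 3 had an unadjusted p under 0.05 and 1 passed with scaling by library totals alone.

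When the share of CT010467.1 was added to the edgeR model as a term, 3 of the 45 histone genes were lower (9.55% of all tested genes), none was higher, and the median log2 fold change was -0.21. The 3 were H4c4 (-0.64 ± 0.16 SE, adjusted p = 0.00697), H2ac4 (-1.33, adjusted p = 0.00797) and H2bc8 (-0.99, adjusted p = 0.0303), the genes whose groups do not overlap. Their share of the 45 was not above that of all tested genes. The same libraries gave both results, which are therefore not separate evidence. The share also differed with the group, without overlap in libraries 4 to 6, so this fit cannot fully separate share and group. Hist1h4m was at -0.47 and did not pass (adjusted p = 0.425). With the replicate block in the same model the same 3 genes were lower (against 11.1% of all tested genes), and Hist1h4m was at -0.76 (adjusted p = 0.196).

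**Figure D4:**
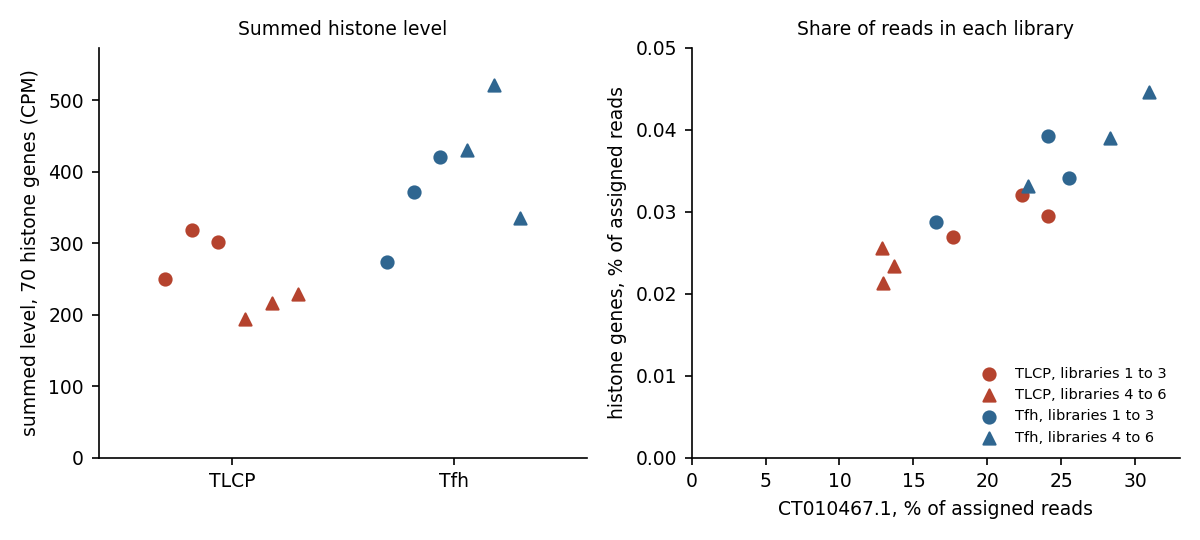
Left, summed level of the 70 histone genes per library in TMM-scaled CPM (TLCP left, Tfh right). Right, the family's percent of assigned reads against that of CT010467.1, with circles for libraries 1 to 3 and triangles for libraries 4 to 6. The TLCP triangles lie lowest on both axes, at 12.9% to 13.7% of CT010467.1, and the Tfh triangles lie at 22.8% to 30.9%.

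The family was also compared within libraries 1 to 3 and within libraries 4 to 6, a split by library number chosen with earlier results known, and no label names a batch. In libraries 1 to 3 the family summed to 249.8 to 319 CPM in TLCP and 274 to 421 CPM in Tfh. In libraries 4 to 6 it summed to 194 to 229 CPM in TLCP and 335 to 521 CPM in Tfh, without overlap. Fitted on libraries 1 to 3 alone, 5 of 47 histone genes were lower (13.5% of all tested genes) with a median log2 fold change of -0.32, and with the replicate block 5 were lower (14%).

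Fitted on libraries 4 to 6 alone, 19 of 48 were lower (10.9% of all tested genes) with a median of -1.14, and with the replicate block 24 were lower (11.5%). Hist1h4m was at -0.87 in libraries 1 to 3 (adjusted p = 0.147) and at -1.47 in libraries 4 to 6 (adjusted p = 0.0357). The difference between the sets was tested as an interaction in edgeR, and 0 of the 45 histone genes passed (0% of all tested genes), with 10 of the 45 at an unadjusted p under 0.05 (against 9.28% of all tested genes). With the replicate block 0 of the 45 passed (0.133% of all tested genes, lower) and 11 had an unadjusted p under 0.05 (10.8%). The sets were thus not shown to differ for any histone gene. The share of CT010467.1 did not overlap between the groups in the second set, with 12.9% to 13.7% in TLCP libraries and 22.8% to 30.9% in Tfh libraries, and overlapped in the first, with 17.7% to 24.1% in TLCP libraries and 16.6% to 25.5% in Tfh libraries.

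**Figure D5:**
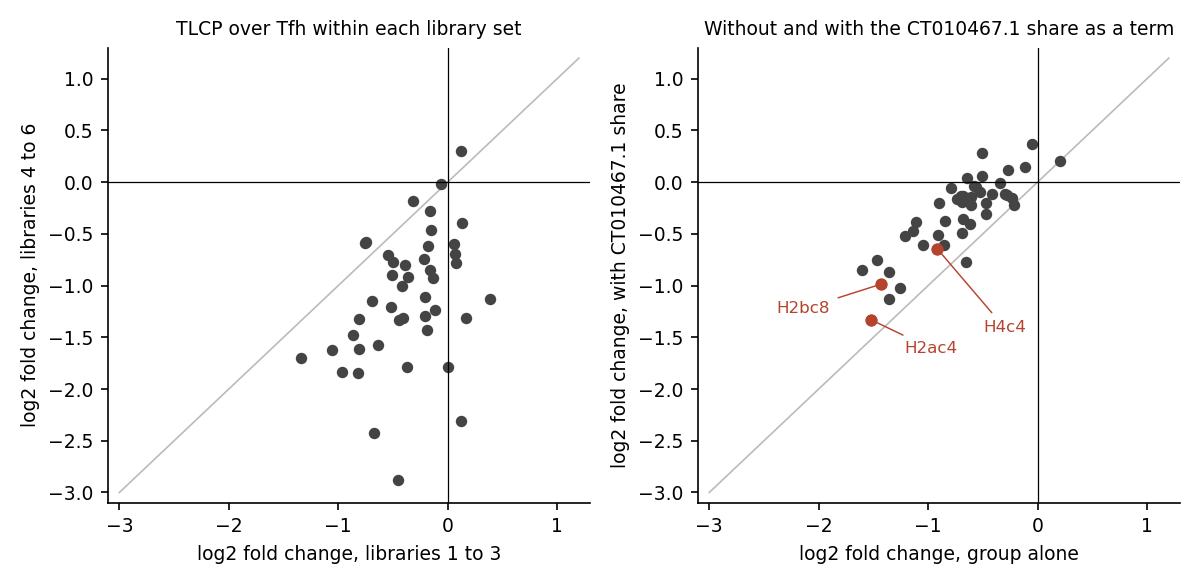
Log2 fold change (TLCP over Tfh) of tested histone genes. Left, libraries 4 to 6 (vertical) against libraries 1 to 3 (horizontal) for 44 genes. Right, the fit with the share of CT010467.1 as a term (vertical) against the fit with the group alone (horizontal) for 45 genes, with the 3 genes that passed in both in red. The grey line marks equal values: most points at left lie below it and most points at right lie above it.

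Of the genes that act in S phase beside the histones, more were higher than lower in TLCP. Of 32 S phase genes, 11 were higher in TLCP (against 16.8% of all tested genes), 2 were lower (16.4%) and 19 did not pass, with a median log2 fold change of 0.20. Scaling by library totals alone gave 20 higher (against 26.7% of all tested genes) and 0 lower (7.43%). Pold1, the catalytic subunit of DNA polymerase delta, averaged 29.5 ± 3.596 CPM in TLCP cells and 17.1 ± 2.88 CPM in Tfh cells (SD, n = 6 each). E2f2, a transcription factor of the S phase program, averaged 72.5 ± 14.3 CPM in TLCP cells and 42.9 ± 6.73 CPM in Tfh cells. Tk1, which makes thymidine phosphate, averaged 20.2 ± 3.20 CPM in TLCP cells and 13.3 ± 1.32 CPM in Tfh cells. Pold1, E2f2 and Tk1 were all higher in TLCP. Pcna, the sliding clamp of DNA replication, did not pass (log2 fold change 0.25, adjusted p = 0.0594) and passed with the replicate block (adjusted p = 0.0197). Per 100 summed CPM of these 32 genes, the histone family summed to 12.3 ± 3.14 CPM in TLCP cells and 20.4 ± 3.85 CPM in Tfh cells. On this ratio TLCP libraries 2 (15.6) and 3 (16.2) lay above Tfh library 1 (14.4), so the groups overlapped. The poly(A) selection retains only part of the histone messages, so the ratio does not measure histone message per cell in S phase.

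Of 22 mitosis genes, 3 were higher (against 16.8% of all tested genes), 6 were lower (16.4%) and 13 did not pass (median log2 fold change -0.05). Scaling by library totals alone gave 5 higher (against 26.7% of all tested genes) and 0 lower (7.43%). Mki67, a marker of dividing cells, averaged 874 ± 164 CPM in TLCP cells and 668 ± 48.6 CPM in Tfh cells and was higher (log2 fold change 0.39 ± 0.10, adjusted p = 0.00744, edgeR). Ccnb1, the mitotic cyclin B1, averaged 14.7 ± 3.24 CPM in TLCP cells and 21.3 ± 1.62 CPM in Tfh cells. Plk1, a mitotic kinase, averaged 22.6 ± 2.88 CPM in TLCP cells and 29.1 ± 3.21 CPM in Tfh cells. Both were lower, which held neither with library totals alone nor on the TPM scale, where no mitosis gene was lower.

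Of 21 genes for the transcription, 3′ processing and decay of histone messages, 3 were higher, 3 were lower and 15 did not pass (median log2 fold change -0.02). Among all tested genes 16.8% were higher and 16.4% lower. Slbp averaged 97.0 ± 11.95 CPM in TLCP cells and 96.9 ± 8.61 CPM in Tfh cells. Npat averaged 62.0 ± 3.01 CPM in TLCP cells and 64.8 ± 3.85 CPM in Tfh cells, and neither passed the test (adjusted p = 0.987 for Slbp and 0.513 for Npat, edgeR). Tut4, a terminal uridylyltransferase that acts on decaying histone mRNA in human cells, was higher, at 169 ± 23.6 CPM in TLCP cells and 93.1 ± 10.01 CPM in Tfh cells (log2 fold change 0.86 ± 0.09, adjusted p = 4.9e-07, edgeR). Srrt, a partner of the cap-binding complex, was higher at 0.21, and Ncbp1, the large subunit of that complex, was lower at -0.23 but at 0.05 on the log2(TPM + 1) scale.

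Variant histones, which are for the most part made outside S phase from polyadenylated messages, differed as single genes. Of 11 listed 9 were tested, of which 1 was higher (against 16.8% of all tested genes) and 2 were lower (16.4%). H1f0, a linker histone of cells that have stopped dividing, averaged 78.2 ± 13.4 CPM in TLCP cells and 154 ± 16.5 CPM in Tfh cells (log2 fold change -0.98 ± 0.10, adjusted p = 6.5e-07, edgeR). H2az2, an H2A.Z gene, averaged 28.9 ± 3.70 CPM in TLCP cells and 45.0 ± 3.23 CPM in Tfh cells and was lower. Macroh2a1, a macroH2A gene, was higher, at 172 ± 7.79 CPM in TLCP cells and 151 ± 6.57 CPM in Tfh cells. Of 17 histone chaperones and assembly factors, 4 were higher (against 16.8% of all tested genes), 5 were lower (16.4%) and 8 did not pass. Atrx, which takes part in the deposition of the variant H3.3, was higher at 0.53 ± 0.11 (SE). Rbbp4 and Rbbp7, histone-binding subunits of several chromatin complexes, were lower at -0.37 and -0.25, and Rbbp7 was at 0.03 on the log2(TPM + 1) scale.

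The genes that followed the summed histone level most closely within the groups were ranked by Pearson's r between deviations from the group mean over the 12 libraries, as a description. Outside the family the first 4 were Lars2 (r = 0.967), Gm15564 (r = 0.948), CT010467.1 (r = 0.934) and Mir6236 (r = 0.905), followed by Plscr3, Pfas, Gm24245, Bsn, Stard5 and Cebpzos (0.898 to 0.852). All share the library, its depth and its selection step with the histone counts. Reads counted for Lars2, the gene of the mitochondrial leucyl-tRNA synthetase, averaged 8140 ± 3658 CPM in TLCP libraries and 13760 ± 4888 CPM in Tfh libraries (SD, n = 6 each). Cd4 averaged 725 CPM in TLCP cells and 955 CPM in Tfh cells. Whether the reads counted for Lars2 come from its message was not tested. The median r was 0.66 over the 4 RNAs without a poly(A) tail, -0.01 over the 32 S phase genes, -0.24 over the 22 mitosis genes and -0.00 over all tested genes.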

How the data were processed

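Cells were sorted by flow cytometry after a magnetic CD4 enrichment, and poly(A) RNA was taken from them for sequencing, per the labels' protocols. The submitters' processing notes name STAR 2.7.1a, DESeq2 1.30.1, bcl2fastq 2.20 and GRCm38, and which annotation release they used is not given in the sources here. The deposited files hold raw read counts per gene and library in STAR's layout, and the counts on the gene's strand were used. Reads in classes that name no gene (44.9% to 56.4% of a library) were left out. The authors also deposited TPM values, and a table of log2 fold changes and adjusted p-values. The 12 columns of per-sample values in that table were not used.

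Genes were kept by filterByExpr, scaled by TMM and tested with edgeR 4.0.16 in R 4.3.3 (quasi-likelihood, robust, 2-sided, Benjamini-Hochberg over 12015 genes, threshold 0.05). SE is the absolute log2 fold change over the square root of F. All 70 genes had the same span in the deposited table and GENCODE M21. Stem-loops were matched as 16-base patterns in GENCODE M21 transcripts, and windows were compared with transcripts, not with a genome. The method was tested on simulated data.

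Same-numbered libraries correlated at 0.127 to 0.318 in their deviations from the group means and other pairs at up to 0.209, so the ranges overlapped. That the numbers pair the libraries was taken as an assumption in the fits with the replicate block. The main fit had no block, and values of single genes come from it unless another fit is named. Alternatives were RLE size factors, library totals, DESeq2 1.42.0, limma 3.58.1 on log2(TPM + 1) and log2(TPM + 0.1), filters, unstranded counts, leaving out CT010467.1, immunoglobulin genes or single libraries, library sets, and the block. The members and the gene lists were chosen with earlier results of these data known. Named genes were, in each class, the gene with the highest TPM, up to 3 called genes with the smallest p and the called gene with the largest change, the 9 rows and the polyadenylated list, and in other lists up to 3 called genes with the smallest p, Slbp, Npat, Mki67 and Pcna. The interaction of library set and group, the share of CT010467.1 as a term, both of these and the library sets with the block, and the ratio to its reads were chosen after seeing the data. Labels do not say whether a library is 1 mouse or a pool, so p-values measure the spread between these libraries. Within each group all pairs of libraries differed beyond sampling noise, with a chi-square of at least 6.60 per degree of freedom.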

Additional observations from a re-analysis of the deposited data

Results flagged for a closer look

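In H2bc8 (Hist1h2bg), TLCP library 4 lay far below the other TLCP libraries, at 3.37 CPM against 6.31 CPM for the next. In Hist1h4m, TLCP library 3 lay far above the other TLCP libraries, at 3.72 CPM against 2.18 CPM for the next. Chance sets apart about 1 in 20 groups of this kind, and 56 groups were examined. Without TLCP library 3 the log2 fold change of Hist1h4m was -1.37 (adjusted p = 0.00383, edgeR).

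H2ac21 (Hist2h2ab) had 33 reads on the strand opposite to the gene beside 34 reads on its own strand, or 49.3% of its reads, where the whole libraries had 2.83% to 4.19%. The annotated gene Gm15444 overlaps H2ac21 on that strand, and its part in these reads was not tested. The reads on that strand were counted for H2ac21 only in the alternative with unstranded counts.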

How the results depend on the processing

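No histone gene was higher in TLCP in any setting. Of the 45 tested histone genes 16 were lower, and in most alternatives the count was within 1.5 times of this. It was 9 with the stricter filter (19 tested), 10 on log2(TPM + 1) and 10 on log2(TPM + 0.1), 5 in libraries 1 to 3 and 3 with the share of CT010467.1 as a term. Leaving out single libraries gave 11 to 21. Of the 3 tested rows under a Hist1h symbol 1 was lower, and 0 were in libraries 1 to 3 and with the share of CT010467.1. With the stricter filter none of these rows could be tested. For S phase genes, higher in 11, the count was 20 with library totals alone, 19 on both TPM scales, 6 in libraries 1 to 3, 7 in libraries 4 to 6 and 4 with the share of CT010467.1, and 6 to 12 without single libraries (6 without TLCP library 5, 7 without TLCP library 6). S phase genes lower in 2 came to 0 with library totals alone and on both TPM scales and to 1 in libraries 4 to 6. Mitosis genes higher in 3 came to 5 with library totals alone, 1 without a filter, 0 in libraries 1 to 3, 5 in libraries 4 to 6 and 0 with the share of CT010467.1, and to 1 to 3 without single libraries. Mitosis genes lower in 6 came to 0 with library totals alone, on both TPM scales and in libraries 4 to 6, and to 3 to 8 without single libraries (3 without TLCP library 1 or 3). With the replicate block added, libraries 1 to 3 gave 5 lower histone genes, 0 rows, 7 higher S phase genes and 0 higher mitosis genes, and libraries 4 to 6 gave 2 rows, 7 higher and 1 lower S phase genes, and 5 higher and 0 lower mitosis genes. The share of CT010467.1 with the block gave 3 lower histone genes, 0 rows, 5 higher S phase genes and 0 higher mitosis genes. The cause of these shifts was not tested.

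The log2 ratio of the summed level (TLCP over Tfh) was -0.64 for the family. It was -0.29 in libraries 1 to 3, -1.01 in libraries 4 to 6 and 0.084 as a ratio to CT010467.1. The ratio to CT010467.1 also turned H1 (0.34) and H4 (0.0034) and gave -0.022 for H2A, -0.046 for H2B and -0.18 for the 9 rows. H1 was at -0.054 by TPM, -0.051 in libraries 1 to 3 and -0.70 in libraries 4 to 6, H2A at -0.25 and -1.28, H3 at -0.15 and -1.74, and the 9 rows at -1.48 in libraries 4 to 6. The turned sign of Ncbp1 was 0.052 on both TPM scales and that of Rbbp7 0.035 on both, neither past the threshold. With the replicate block 19 histone genes were lower, and it changed the 7 histone calls named above and no other. Among the cell cycle and processing lists it added Pcna, Rrm1, Mcm5, Aurka and Pou2f1 and ended Top2a. Genes with few reads are limited by depth: 25 of the 70 could not be tested. With windows of 100 bases, 29 rather than 36 genes had fewer than 50% unshared windows.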
